A study of Rattus norvegicus with 16 samples.

Results

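Small leucine-rich proteoglycans are secreted proteins of the connective tissue matrix, and 10 of their genes (Dcn, Bgn, Aspn, Lum, Fmod, Kera, Prelp, Omd, Epyc and Ogn) were followed here in cells sorted from cultures of rat olfactory mucosa. The probes of the 10 genes were found by gene name alone, among 26202 genes with a probe on the arrays, and 11 probes carried their names. The family itself was chosen with earlier results of these data known. Per the labels, cells from male Fischer rats were sorted by flow cytometry into 4 populations of 4 biological replicates each, at a purity of 93 to 97%. CD90, p75 and TRKA cells came from cultures kept under a common protocol, and TRKA-TGF cells were sorted for TRKA too, after culture in the presence of transforming growth factor alpha. CD90 is the surface protein encoded by Thy1 and p75 the neurotrophin receptor encoded by Ngfr. Each population was defined by 1 surface protein, and whether replicates came from separate animals or separate cultures is not stated, so p-values measure the spread between these samples, which may be technical.

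The members of this family are built from leucine-rich repeats that bind fibrillar collagens, and they govern how thick collagen fibrils become and how they are spaced. Most carry sulphated sugar chains, which are chondroitin or dermatan sulphate on decorin, biglycan and epiphycan and keratan sulphate on lumican, fibromodulin and keratocan. In soft tissue they are made mainly by fibroblasts and other mesenchymal cells, and several also hold growth factors such as transforming growth factor beta in the matrix.

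The arrays read each gene through a 60-base probe, and 6 of these probes are given here because the results below turn on whether they were bright or dark. The probes for Lum and Dcn, 2 genes that were detected on some arrays of a population and not on others, share a run of 12 bases (in capitals) and at best 30 of 60 bases without gaps. No other pair of the 11 probes shared a run of over 9 bases. The Bgn and Kera probes end in a stop codon (in capitals) that closes a frame with no other stop, and Bgn is shown because its second probe gave another order of the populations. The Epyc and Aspn probes stand for genes that were bright on all CD90 arrays. Positions are given on rn4, as in the scanner files, and whether a probe lies in an exon that all transcripts share was not analysed here.

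Lum probe, chr7:35086409-35086468, plus strand: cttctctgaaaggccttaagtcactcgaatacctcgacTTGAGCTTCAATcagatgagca
Dcn probe, chr7:35037331-35041132, plus strand, interrupted by an intron: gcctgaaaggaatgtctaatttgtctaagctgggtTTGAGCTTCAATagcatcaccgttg
Epyc probe, chr7:35197832-35197891, plus strand: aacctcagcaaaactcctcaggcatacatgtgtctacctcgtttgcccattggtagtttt
Kera probe, chr7:35128529-35128588, plus strand: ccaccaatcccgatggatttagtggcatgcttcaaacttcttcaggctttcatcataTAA
Aspn probe, chr17:21035836-21035895, minus strand: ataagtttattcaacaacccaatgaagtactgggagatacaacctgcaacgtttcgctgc
Bgn probe, chrX:159392152-159392211, plus strand: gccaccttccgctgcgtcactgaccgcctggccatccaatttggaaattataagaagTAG

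Levels below are log2 processed signals from which each array's own 75th percentile was subtracted, so that a level of 0 is the signal at that percentile, and a gene is called at an adjusted p under 0.05. A probe counts as detected where the scanner software marked it well above background. Of the genes behind the sort, Thy1 stood at 3.44 ± 0.29 in CD90 cells (mean ± SD, n = 4, here and below) and Ngfr at 3.16 ± 0.24 in p75 cells, the highest of the 4 populations in each case. The TRKA populations are named by their label only. All 12 macrophage markers tested were detected on every TRKA array and 11 on every TRKA-TGF array, but also 9 to 11 on CD90 and 8 to 10 on p75 arrays. Detection was poorer on the TRKA arrays, where 51.4 to 57.5% of spots were well above background against 66.4 to 72.4% on the other 12 arrays, and the median processed signal was 22.8 to 39.2 against 133 to 219.

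Nearly the whole family was detected in CD90 cells and a part of it in the other 3 populations. On each CD90 array 9 of the 10 members were detected, against 5 to 6 on p75 arrays, 3 to 5 on TRKA arrays and 3 to 6 on TRKA-TGF arrays. Bgn, Fmod and Prelp were detected on all 16 arrays, Omd on the 4 CD90 arrays and no other, and Kera on 1 array (TRKA-TGF replicate 2). Kera, detected on under 4 arrays, was not tested, which left 9 members among 20568 genes. In these bulk samples fewer cells that express a gene and less RNA per cell cannot be told apart.

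**Figure D1:**
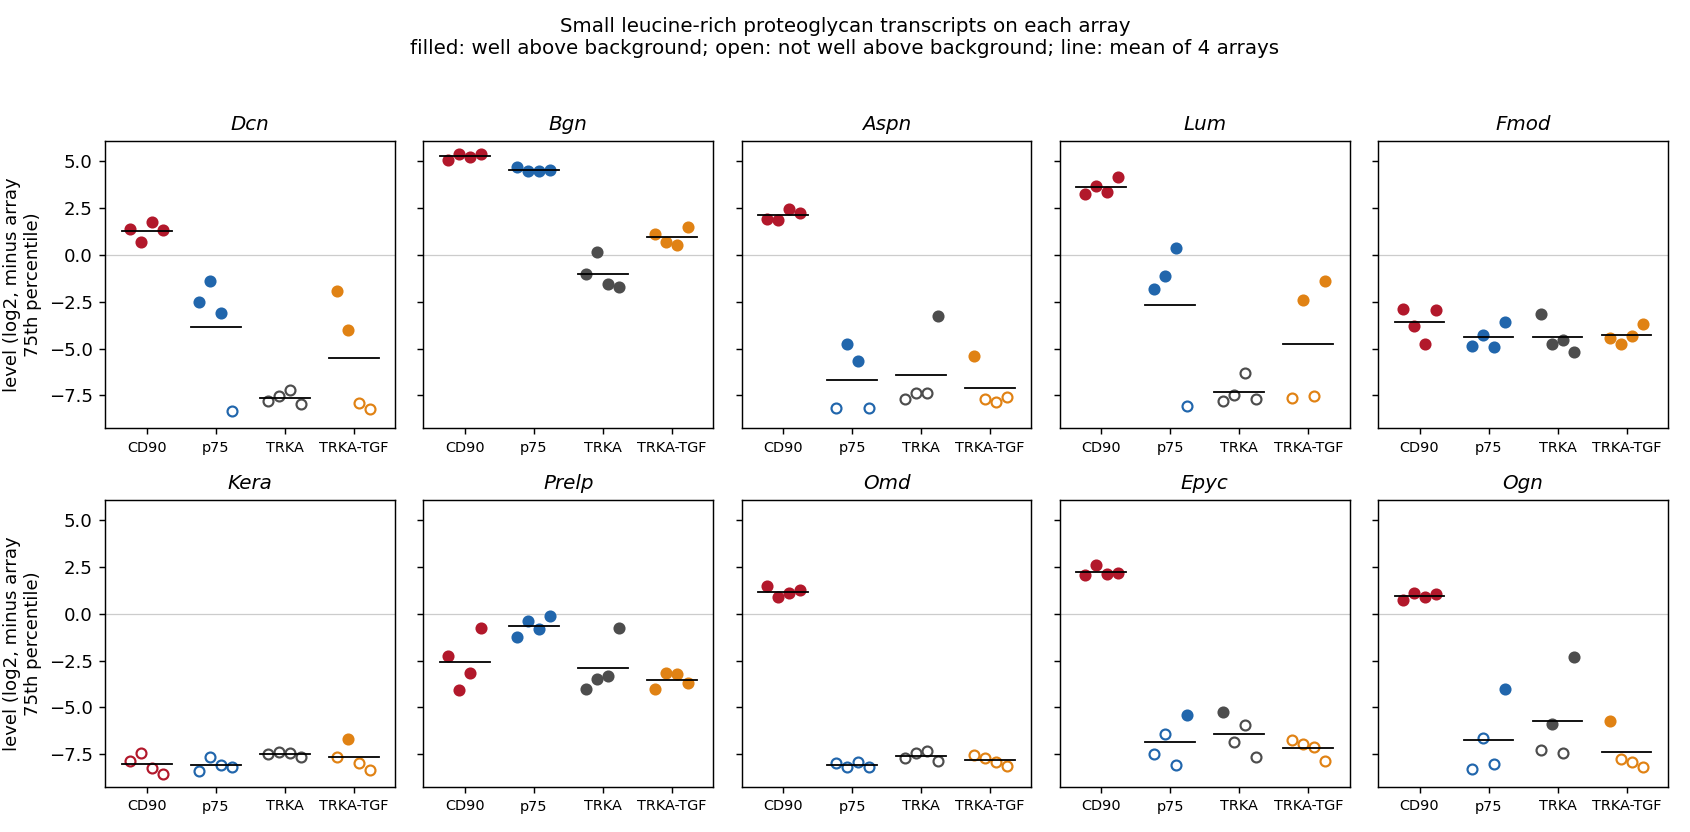
Level of each of the 10 genes on every array (log2 relative to the array's 75th percentile, vertical axis) in the 4 populations (horizontal axis), with filled points for arrays on which the probe was well above background, open points for the others and a line at the mean of 4 arrays. Omd is filled on the 4 CD90 arrays and open on the other 12, and Lum and Dcn in p75 cells split into 3 filled points and 1 open point.

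Between CD90 and p75 cells, 5 of the 9 tested members were called and all 5 were higher in CD90 (Omd, Epyc, Aspn, Ogn and Lum), where 7.25% of all genes were called and 3.69% were called higher. The median difference over the 9 members was 6.27 on the log2 scale, against 0.05 over all genes. Between TRKA and CD90 cells 7 members were called, all lower in TRKA (Omd, Epyc, Aspn, Ogn, Lum, Dcn and Bgn), with 34.9% of all genes called and 16.6% called lower, and the median over the members was −8.55 against −0.09. TRKA-TGF cells were lower than CD90 cells for 7 of the 9 members too, with 14.9% of all genes called and 7.2% called lower, and here the medians were −8.36 and 0.15. The CD90 arrays enter all 3 of these comparisons. Omd and Epyc passed the filter of 4 arrays only through their CD90 arrays (Omd was detected on 0 and Epyc on 2 of the other 12) and had to differ, so these counts describe the family and are no independent support.

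Markers of other cell types also moved with the populations. All 10 ensheathing glia markers, among them Ngfr, which encodes the protein p75 cells were sorted on, were called higher in p75 than in CD90 and in TRKA cells, and their summed signal was 94.6 to 104 times the 75th percentile on p75 arrays, 0.993 to 1.78 on CD90, 0.346 to 1.07 on TRKA and 2.66 to 3.07 on TRKA-TGF arrays. The 12 macrophage markers summed to 488 to 660 on TRKA arrays, 188 to 198 on TRKA-TGF, 14.6 to 30.1 on CD90 and 5.05 to 9.17 on p75 arrays, and all 12 were called higher in TRKA than in CD90 and p75 cells. The shares of all genes called in either direction were 7.25% between CD90 and p75, 35.7% between TRKA and p75 and 34.9% between TRKA and CD90 cells. Markers of epithelium, olfactory neurons and endothelium summed to at most 7.49 on any array. The part of these cells in the member differences was not tested.

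The other 3 comparisons gave few calls among the members. TRKA cells were lower than p75 cells in 3 of 9 (Bgn, Lum and Prelp), close to the 35.7% of all genes called there, with 16.9% called lower. TRKA-TGF cells were lower than p75 cells in 2 of 9 (Bgn and Prelp), with 15.1% of all genes called and 7.15% called lower. TRKA-TGF and TRKA cells differed in 1 of 9 (Bgn, higher in TRKA-TGF by the probe printed above), with 26.4% of all genes called and 13.5% called higher, and the median member difference was −0.24 against 0.19 over all genes. The split of all calls moved with the processing: 52.3% of the genes called between TRKA and CD90 cells were higher in TRKA, 52.7% of those between TRKA and p75 cells were higher in TRKA and 51.1% of those between TRKA-TGF and TRKA cells were higher in TRKA-TGF, against 62.3%, 66.6% and 39.1% with normexp background correction and 59.8%, 60.3% and 39.9% with quantile normalization. The p75 and TRKA arrays shared slide 1 and the TRKA-TGF and CD90 arrays slide 2, each scanned on its own. TRKA against p75 and TRKA-TGF against CD90 were therefore compared within a slide, whereas in the other 4 comparisons slide and population cannot be told apart. Within a slide, row and population cannot be told apart either.

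**Figure D2:**
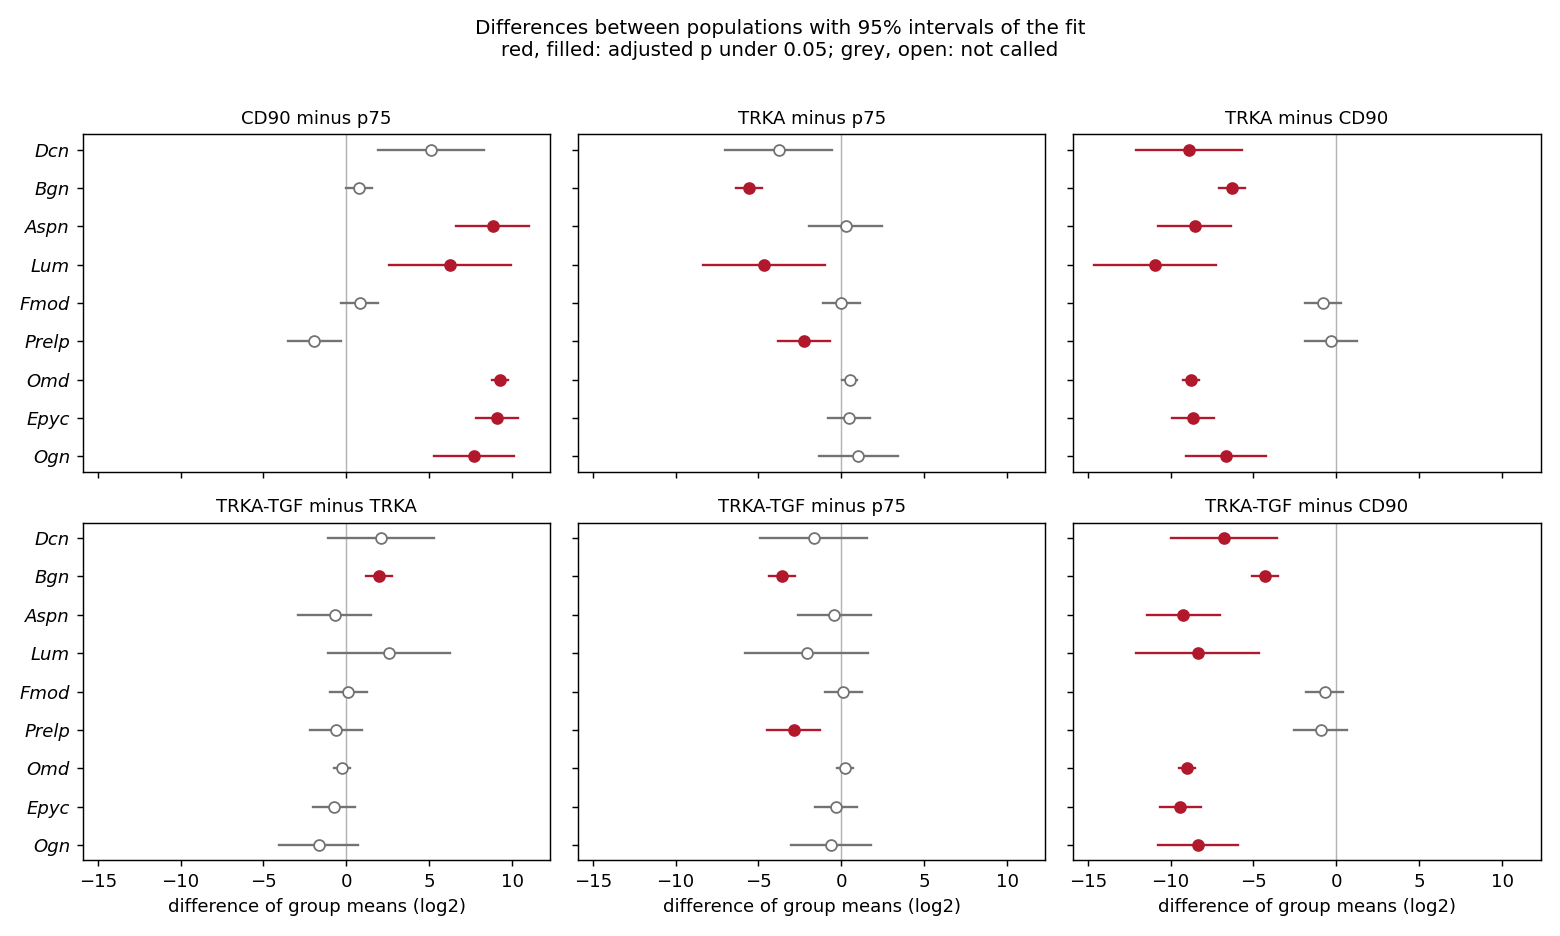
Difference of group means on the log2 scale (horizontal axis, with 95% intervals of the limma fit) for the 9 tested members (vertical axis) in the 6 comparisons; red filled points have an adjusted p under 0.05 over all genes and grey open points do not. In both comparisons with CD90 cells in the right column, 7 points lie at −4.32 or lower, while Fmod and Prelp lie between −0.95 and −0.33.

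Decorin, biglycan and asporin form the first class of the family. Dcn encodes decorin, which coats collagen fibrils and binds transforming growth factor beta. Its levels on the CD90 arrays were 1.39, 0.69, 1.75 and 1.33. On the p75 arrays they were −2.52, −1.40, −3.12 and −8.31, on the TRKA arrays −7.81, −7.55, −7.19 and −7.96, and on the TRKA-TGF arrays −1.91, −4.003, −7.91 and −8.24. CD90 arrays lay above all others, the fourth p75 array and the last 2 TRKA-TGF arrays were not well above background, and neither was any TRKA array. The differences of TRKA and TRKA-TGF from CD90 cells were called, the first at least 233-fold lower (adjusted p = 0.000303) and the second −6.81 ± 1.47 (SE, adjusted p = 0.00547). The difference between CD90 and p75 cells, 5.13 ± 1.47, missed the threshold with an adjusted p of 0.0511. TRKA against p75 missed it too (−3.79 ± 1.47, adjusted p = 0.0587). Without p75 replicate 4 the latter was −5.28 with an adjusted p of 0.00491. Over all alternatives the adjusted p ran from 0.000552 to 0.117 for CD90 against p75, where 7 alternatives gave a call (normexp, quantile normalization, the authors' values, the stricter filter, the mean of a gene's probes, the replicate block and the fit without p75 replicate 2), and from 0.00491 to 0.266 for TRKA against p75. These 7 are not separate checks. The authors' values matched quantile normalization, and the filter, the mean of probes and the block left the difference at 5.13.

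Bgn encodes biglycan, the closest relative of decorin and, once freed from the matrix, a ligand of toll-like receptors on macrophages. It was detected on all 16 arrays by both of its probes. By the probe that ends in the stop codon, CD90 arrays read 5.09, 5.39, 5.26 and 5.40 and p75 arrays 4.68, 4.47, 4.51 and 4.53. TRKA arrays read −1.02, 0.16, −1.53 and −1.69 and TRKA-TGF arrays 1.15, 0.70, 0.52 and 1.49. No 2 populations overlapped, in the order CD90, p75, TRKA-TGF, TRKA, but the step between CD90 and p75 (0.74 ± 0.36) was not called (adjusted p = 0.311) except in a fit of only these populations (adjusted p = 0.0460). TRKA cells were 47.5-fold lower than p75 cells (adjusted p = 6.14e-08) and 79.2-fold lower than CD90 cells (adjusted p = 2.47e-08). TRKA-TGF cells were 11.98-fold lower than p75 cells, 20.0-fold lower than CD90 cells and 3.96-fold higher than TRKA cells (adjusted p = 0.00108).

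The second Bgn probe gave the opposite order for the TRKA populations. It lies 1200 bases further along the transcript and 1197 bases further along the X chromosome (chrX:159393349-159393408), near the end of the gene. It read 4.02, 3.90, 3.79 and 3.49 on CD90 arrays and 3.14, 3.12, 2.95 and 3.16 on p75 arrays. On TRKA arrays it read 1.75, 2.61, −1.85 and 2.35 and on TRKA-TGF arrays −3.09, −1.51, −3.15 and −1.31. On this probe 3 TRKA arrays stood far above every TRKA-TGF array and the third TRKA array fell among them. TRKA-TGF minus TRKA was −3.48 ± 0.79 here (adjusted p over probes 0.00495) against 1.99 ± 0.36 on the first probe. The direction of Bgn between TRKA and TRKA-TGF cells is thus not settled by these arrays. In the other 5 comparisons both probes had the same sign, but the sizes differed. TRKA minus CD90 was −2.58 ± 0.79 on the second probe (adjusted p over probes 0.0205) against −6.31 ± 0.36 on the first. TRKA minus p75 was −1.88 ± 0.79 on the second probe and not called (adjusted p over probes 0.0790), against −5.57 ± 0.36 on the first.

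**Figure D3:**
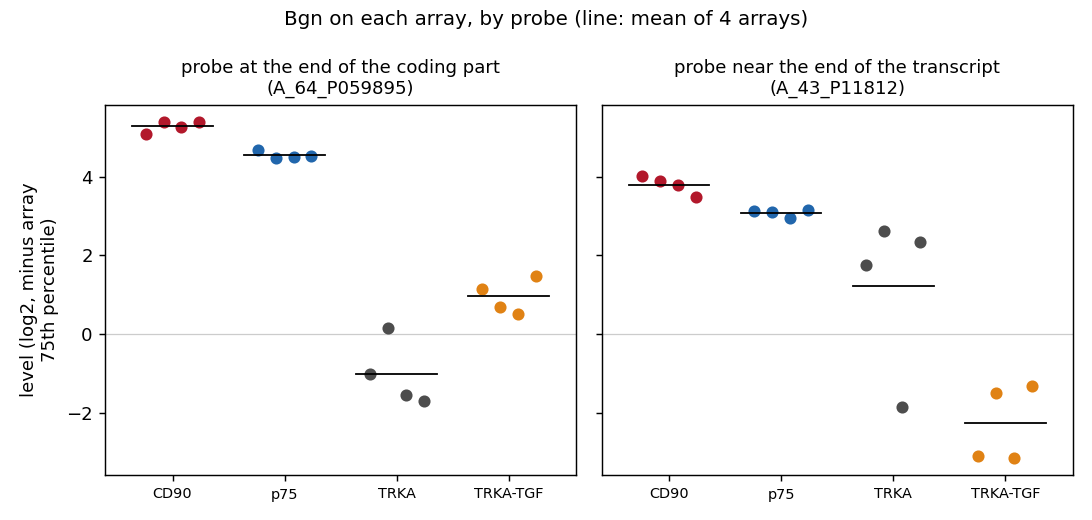
Level of Bgn on every array (log2 relative to the array's 75th percentile) in the 4 populations by the probe that ends in the stop codon (left) and the probe near the end of the transcript (right), with a line at the mean of 4 arrays. TRKA-TGF lies above TRKA on the left (0.96 against −1.02) and below it on the right (−2.27 against 1.22).

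Aspn encodes asporin, a relative of decorin that binds collagen and restrains transforming growth factor beta. CD90 arrays read 1.95, 1.86, 2.44 and 2.26. The p75 arrays read −8.18, −4.75, −5.66 and −8.19, the TRKA arrays −7.68, −7.40, −7.37 and −3.27, and the TRKA-TGF arrays −5.38, −7.67, −7.85 and −7.56. It was detected on all CD90 arrays, on 2 p75 arrays and on 1 array each of TRKA and TRKA-TGF, and every CD90 array lay above every other array. CD90 cells exceeded p75 cells by 8.82 ± 1.01 (adjusted p = 5.85e-05). TRKA and TRKA-TGF cells lay below CD90 cells, with differences of −8.55 and −9.24 (adjusted p = 1.86e-05 and 2.17e-05). Between p75, TRKA and TRKA-TGF cells the ranges overlapped and no comparison was called.

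Lumican, fibromodulin, keratocan, PRELP and osteomodulin form the second class. Lum encodes lumican, a keratan sulphate proteoglycan of cornea and skin that keeps collagen fibrils thin. CD90 arrays read 3.26, 3.69, 3.39 and 4.17. The p75 arrays read −1.80, −1.10, 0.38 and −8.06, the TRKA arrays −7.78, −7.50, −6.28 and −7.69, and the TRKA-TGF arrays −7.66, −2.41, −7.55 and −1.38. Lum was detected on the first 3 p75 arrays, on no TRKA array and on the second and the fourth TRKA-TGF array. Of all members its group means spanned the widest range, 10.9 on the log2 scale. TRKA cells were at least 1173-fold lower than CD90 cells (adjusted p = 0.000179) and the difference of TRKA-TGF from CD90 cells was −8.38 ± 1.69 (adjusted p = 0.00346).

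The Lum calls against p75 cells depended on single arrays. CD90 exceeded p75 by 6.27 ± 1.69 (adjusted p = 0.0382), and leaving out p75 replicate 4 gave 4.47 with an adjusted p of 0.0776. Leaving out any 1 CD90 array, or p75 replicate 1 or 2, ended the call as well (adjusted p from 0.0524 to 0.0880). TRKA minus p75 was −4.66 ± 1.69 (adjusted p = 0.0453), and −6.47 with an adjusted p of 0.00245 without p75 replicate 4. The ranges overlapped, as p75 replicate 4, itself not detected, lay below every TRKA array. With normexp the difference was −1.96 and not called (adjusted p = 0.0657). Leaving out any other p75 or TRKA array ended that call (adjusted p from 0.0560 to 0.134). Over all alternatives the adjusted p ran from 0.000598 to 0.0880 for the first difference and from 0.00245 to 0.227 for the second.

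On p75 replicate 4 Lum and Dcn were both at background, while Epyc and Ogn were detected there and on no other p75 array. Summed over 10 fibroblast markers, the signal of that array was 213 times its 75th percentile, within the 203 to 220 of the other p75 arrays. Genes detected on some but not all p75 arrays, with over 5 log2 units between arrays, made up 8.43% of all genes tested and 2 of the 9 members (Lum and Dcn). In TRKA-TGF cells such genes were 4.98% of all, again with Lum and Dcn the 2 members, although Dcn was on in replicates 1 and 2 and Lum in replicates 2 and 4. The part of any single cause in these splits was not tested.

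Fmod encodes fibromodulin, which competes with lumican for a site on collagen. It was low and detected on all 16 arrays. CD90 arrays read −2.91, −3.81, −4.74 and −2.93, p75 arrays −4.84, −4.28, −4.91 and −3.58, TRKA arrays −3.16, −4.73, −4.52 and −5.19, and TRKA-TGF arrays −4.44, −4.74, −4.33 and −3.66. All populations overlapped and no comparison was called, with 95% intervals of the difference from −1.11 to 1.11 for TRKA minus p75 and from −1.005 to 1.22 for TRKA-TGF minus TRKA. Quantile normalization in place of the percentile turned the latter from 0.11 to −1.56 (adjusted p = 0.0258) and moved the former from 0.00 to 1.52 (adjusted p = 0.0219).

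Kera encodes keratocan, best known from the cornea. It stood at −8.01 ± 0.49 in CD90, −8.09 ± 0.31 in p75, −7.48 ± 0.11 in TRKA and −7.65 ± 0.72 in TRKA-TGF cells. These values were not well above background except on 1 array, and no difference is given.

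Prelp encodes a basic member of the family that carries no sulphated sugar chains and links the matrix to basement membranes. It was the only tested member highest in p75 cells, with −1.22, −0.38, −0.82 and −0.10 on the 4 arrays. CD90 arrays read −2.24, −4.07, −3.18 and −0.77, TRKA arrays −4.03, −3.47, −3.34 and −0.74, and TRKA-TGF arrays −4.0, −3.17, −3.22 and −3.67. The p75 range overlapped that of CD90 through CD90 replicate 4 and that of TRKA through TRKA replicate 4, and lay above all TRKA-TGF arrays. TRKA-TGF cells were 7.40-fold lower than p75 cells (adjusted p = 0.0141) and TRKA cells 4.81-fold lower (adjusted p = 0.0262), while CD90 minus p75 was −1.94 ± 0.73 and not called (adjusted p = 0.152). Without CD90 replicate 4 that difference was −2.53 and called (adjusted p = 0.0472). Without TRKA replicate 4 the TRKA difference was −2.98 (adjusted p = 0.00213), and quantile normalization gave −1.23 (adjusted p = 0.158). Leaving out p75 replicate 2 or 4 or TRKA replicate 1, 2 or 3 ended the call (adjusted p from 0.0591 to 0.0700), and over all alternatives the adjusted p ran from 0.00213 to 0.158.

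Omd encodes osteomodulin, a keratan sulphate proteoglycan of bone and tooth matrix. CD90 arrays read 1.49, 0.88, 1.10 and 1.27. All other arrays lay between −8.18 and −7.34 and none was well above background. CD90 cells were at least 325-fold higher than p75 cells (adjusted p = 1.06e-11), and TRKA and TRKA-TGF cells at least 217-fold and 256-fold lower than CD90 cells. Such a bound sets the bright group against the weakest signals that still counted as detected on the dark arrays, and is approximate.

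Epiphycan and osteoglycin form the third class. Epyc encodes epiphycan, known from growth cartilage. CD90 arrays read 2.07, 2.61, 2.12 and 2.19. The p75 arrays read −7.47, −6.45, −8.06 and −5.42, the TRKA arrays −5.23, −6.85, −5.92 and −7.63, and the TRKA-TGF arrays −6.72, −6.93, −7.12 and −7.87. Beyond the CD90 arrays it was detected on p75 replicate 4 and TRKA replicate 1. CD90 exceeded p75 by 9.10 ± 0.58 (adjusted p = 1.76e-07), TRKA minus CD90 was −8.65 (adjusted p = 1.19e-07) and TRKA-TGF cells were at least 534-fold lower than CD90 cells (adjusted p = 1.04e-07). As 3 of 4 p75 arrays and 3 of 4 TRKA arrays were dark, the sizes depend on how background was treated, and normexp gave 6.34 for CD90 minus p75.

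Ogn encodes osteoglycin, also called mimecan, a matrix protein of bone, vessel wall and cornea. CD90 arrays read 0.76, 1.10, 0.91 and 1.07. The p75 arrays read −8.30, −6.64, −8.03 and −4.01, the TRKA arrays −7.25, −5.89, −7.43 and −2.30, and the TRKA-TGF arrays −5.74, −7.75, −7.92 and −8.17. It was detected on p75 replicate 4, on TRKA replicates 2 and 4 and on TRKA-TGF replicate 1, and all of these lay below every CD90 array. The differences below are thus set against probes that were mostly dark. CD90 exceeded p75 by 7.71 ± 1.11 (adjusted p = 0.000424), TRKA minus CD90 was −6.68 ± 1.11 (adjusted p = 0.000319) and TRKA-TGF minus CD90 −8.36 ± 1.11 (adjusted p = 0.000119). With normexp CD90 minus p75 was 4.96. On TRKA replicate 4 Aspn, Ogn and Prelp each had their highest level of the TRKA arrays.

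The 10 genes lie in 3 clusters and at 1 single locus. On rn4 the probes of Ogn, Omd and Aspn lay within 48.7 kb on chromosome 17, those of Dcn, Lum, Kera and Epyc within 160.6 kb on chromosome 7, and those of Prelp and Fmod within 134.9 kb on chromosome 13, with Bgn alone on the X chromosome. All 3 genes of the chromosome 17 cluster were high on the 4 CD90 arrays. Of the chromosome 7 cluster Dcn, Lum and Epyc were high on those arrays, but Kera, which lies between Lum and Epyc, was not detected on any of them. Neither gene of the chromosome 13 cluster was called higher in CD90 cells in any comparison. On the 12 arrays outside CD90 cells, Dcn and Lum were detected together on 4 and both undetected on 6, with Dcn alone on 1 and Lum alone on 1. Ogn was detected without Omd on 4 of these arrays, and Ogn and Aspn were detected together on 2, both undetected on 6 and 1 without the other on 4.

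**Figure D4:**
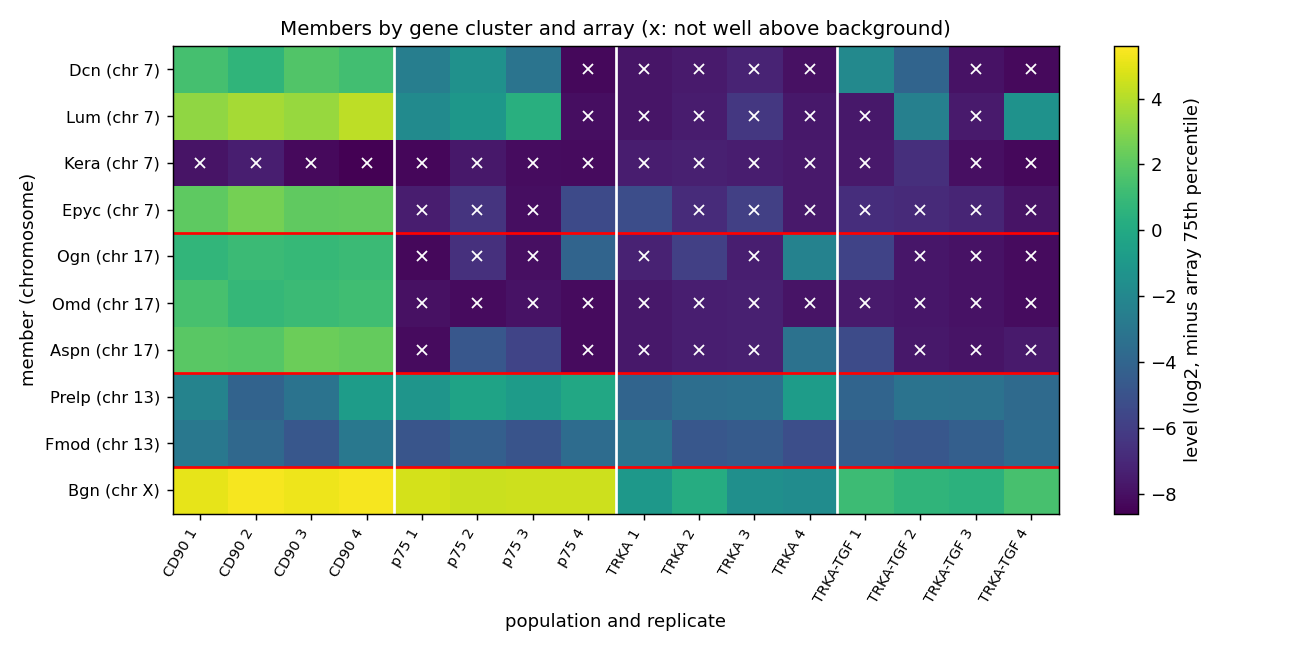
Level of the 10 genes (rows, ordered by chromosomal cluster, red lines between clusters) on the 16 arrays (columns, white lines between populations), with the colour scale in log2 relative to the array's 75th percentile and a white cross where the probe was not well above background. The first 4 columns hold 1 crossed row, Kera, and the Omd row is crossed in the other 12 columns.

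RefSeq promoters on GRCr8 were at hand for 7 of the 10 members. The 250 bases before the start of the 3 neighbours on chromosome 17 are given because these genes were high together in CD90 cells, with CANNTG (the E-box, a pattern that reads the same on both strands) in capitals. CANNTG occurred in 5 of the 7 member promoters and in 65.5% of 33469 promoters of that length. CCAAT, searched on both strands, occurred in 3 of 7 (Fmod, Kera and Lum) and in 34.0% of all. TATAAA occurred in 1 of 7 (Ogn) against 12.9%, and TGANTCA, the AP-1 motif, in 0 of 7 against 6.34%. The Omd window held none of these 4 motifs, so the 3 neighbours shared no motif searched for.

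Omd promoter, GRCr8, chr17:15274871-15275120, minus strand: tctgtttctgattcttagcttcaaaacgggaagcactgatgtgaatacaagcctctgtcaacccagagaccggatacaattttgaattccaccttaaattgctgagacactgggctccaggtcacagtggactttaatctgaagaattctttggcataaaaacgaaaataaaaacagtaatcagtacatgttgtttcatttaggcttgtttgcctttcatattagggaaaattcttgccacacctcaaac
Aspn promoter, GRCr8, chr17:15310470-15310719, minus strand: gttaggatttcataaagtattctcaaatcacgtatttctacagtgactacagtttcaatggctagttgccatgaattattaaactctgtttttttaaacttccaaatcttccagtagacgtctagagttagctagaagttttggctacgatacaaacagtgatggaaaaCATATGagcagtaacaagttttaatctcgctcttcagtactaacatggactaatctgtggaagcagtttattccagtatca
Ogn promoter, GRCr8, chr17:15258996-15259245, minus strand: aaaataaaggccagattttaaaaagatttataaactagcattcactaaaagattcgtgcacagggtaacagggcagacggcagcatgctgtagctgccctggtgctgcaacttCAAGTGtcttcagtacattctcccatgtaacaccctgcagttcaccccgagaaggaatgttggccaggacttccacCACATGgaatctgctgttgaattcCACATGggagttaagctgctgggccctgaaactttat

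The fibrillar and beaded collagens that these proteins bind were lower in both TRKA populations than in CD90 cells. All 12 collagen genes of that list were called lower in TRKA than in CD90 cells and all 12 in TRKA-TGF than in CD90 cells, with medians of −7.14 and −7.01 beside −0.09 and 0.15 over all genes. Against p75 cells 5 of 12 were called lower in TRKA (Col12a1, Col5a1, Col11a1, Col14a1 and Col5a2) and 7 of 12 in TRKA-TGF cells, where 16.9% and 7.15% of all genes were called lower. Of the TRKA calls against p75 cells, that of Col11a1 was lost in 7 of 17 alternatives and that of Col14a1 in 5. Against CD90 cells, Col1a2 in TRKA and Col2a1 in TRKA-TGF cells each lost the call in 7 of 17. Between CD90 and p75 cells 5 of 12 were called, all higher in CD90. Among them Col6a1, Col6a2 and Col6a3, the chains of collagen VI to which decorin and biglycan bind, were higher by 8.02, 6.98 and 7.46. Col6a2 stood at 1.19 ± 0.43 in CD90 cells and was detected on 2 p75 arrays and no TRKA or TRKA-TGF array. Col14a1, a collagen on the surface of fibrils, was higher by 4.74, and Col2a1, the collagen of cartilage, by 4.27. Of these 5, the Col6a3 call was lost in 6 of 17 alternatives, that of Col2a1 in 4 and that of Col14a1 in 1.

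Col1a1 was bright on all TRKA arrays, where the collagen VI chains were mostly not detected. Col1a1 stood at 8.11 ± 0.12 in CD90, 7.23 ± 0.04 in p75, 6.89 ± 0.14 in TRKA and 2.62 ± 0.70 in TRKA-TGF cells. TRKA-TGF was lower than TRKA for Col1a1 (−4.26 ± 0.29, adjusted p = 3.42e-07), Col1a2 (−5.07 ± 1.01) and Col5a2 (−1.55 ± 0.34), and higher for Col12a1 (1.90 ± 0.61), the 4 collagens called there. The Col12a1 call was lost in 10 of 17 alternatives (0.43 to 3.11) and that of Col5a2 in 4. The summed signal of the 10 fibroblast markers, 3 of which are collagens of this list (Col1a1, Col1a2 and Col3a1), was 110 to 159 times the 75th percentile on TRKA arrays, 4.45 to 14.7 on TRKA-TGF, 203 to 220 on p75 and 469 to 539 on CD90 arrays. Col1a1 alone made up 76.6 to 93.7% of it on TRKA arrays. The 7 markers that are not collagens summed to 0.0922 to 8.405 on TRKA, 0.835 to 2.10 on TRKA-TGF, 37.5 to 41.7 on p75 and 65.9 to 80.9 on CD90 arrays. Of the 10 markers 2 were called lower in TRKA-TGF than in TRKA cells (Col1a1 and Col1a2) and 2 higher, Postn, a matricellular protein (5.17), and Loxl1, a collagen cross-linking enzyme (at least 9.43-fold). Between TRKA-TGF and TRKA cells 26.4% of all genes were called, which stands beside the counts of collagens and of markers. Postn was detected on 1 TRKA array, at 0.35, within the TRKA-TGF range (−1.30 to 0.71). All 10 markers were detected on each CD90 array, 8 to 9 on p75, 5 to 7 on TRKA and 8 on TRKA-TGF arrays. Their part in the member differences was not tested.

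Enzymes that build the chondroitin and dermatan sulphate chains were called in both directions. Between CD90 and p75 cells 7.25% of all genes were called, and of the 15 tested enzymes 3 were called, all higher in CD90. They were Chsy1 and Csgalnact1, which polymerise and start the chondroitin chain (2.95 and 2.91), and Dse, the epimerase that turns chondroitin into dermatan sulphate (1.95 ± 0.28, adjusted p = 0.000383). The Csgalnact1 call was lost in 9 of 17 alternatives and that of Chsy1 in 5. Csgalnact2 and Dsel, the relatives of Csgalnact1 and Dse, were not detected on any TRKA array and were detected on all arrays of the other populations. In TRKA-TGF cells they were at least 59.8-fold and 4.62-fold higher than in TRKA cells (adjusted p = 2.28e-05 and 0.000916). Over the alternatives these differences went as low as 3.20 and 0.49 on the log2 scale, and the Dsel call was lost in 1 of 17.

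In TRKA cells 4 of the 15 enzymes were called lower than in CD90 cells (Dsel, Csgalnact2, Csgalnact1 and Chst15) and 2 higher, namely the sulphotransferases Chst12 (4.68) and Chst13 (1.51). Against p75 cells 4 were lower (Dsel, Csgalnact2, Chst11 and Chpf) and 3 higher (Chsy1, Chst13 and Dse). TRKA-TGF cells had 3 enzymes higher than TRKA cells (Csgalnact2, Ust and Dsel) and 2 lower (Chsy1 and Chst13). Among these calls Ust was lost in 11 of 17 alternatives, Chsy1 against TRKA in 8, Chst15 in 9 and Chpf in 7. Of all genes, 34.9% were called in TRKA against CD90, 35.7% in TRKA against p75 and 26.4% in TRKA-TGF against TRKA.

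Keratan sulphate enzymes were called in both directions as well. Chst1, a sulphotransferase of keratan sulphate, was called in 5 of the 6 comparisons. It stood at 1.97 ± 0.22 in TRKA, 1.24 ± 0.19 in TRKA-TGF and −1.98 ± 0.93 in CD90 cells and was detected on 1 p75 array. CD90 exceeded p75 by 4.88 ± 0.80 (adjusted p = 0.00131) and TRKA exceeded p75 by 8.83 ± 0.80 (adjusted p = 1.66e-06). Fut8, a fucosyltransferase, was lower in TRKA than in p75 and CD90 cells (−7.04 and −6.21) and higher in TRKA-TGF than in TRKA cells (5.58). It was detected on 1 TRKA array, at 0.21, within the CD90 range (−0.21 to 1.41) and above every TRKA-TGF array (at most 0.16). B3gnt7, which extends the keratan chain, was by its group means at least 20.6-fold higher in TRKA and at least 39.2-fold higher in TRKA-TGF than in CD90 cells. It was detected on 3 TRKA arrays only, and TRKA levels (−7.58 to −0.62) overlapped those of CD90 arrays (−7.86 to −6.95). B3gnt2, of the same enzyme family, was lower in CD90 and in TRKA than in p75 cells (−1.26 and −1.27). St3gal4, a sialyltransferase, was lower in TRKA-TGF than in TRKA and p75 cells (−1.98 and −2.96), and Chst5, a sulphotransferase, was lower in TRKA than in CD90 and TRKA-TGF cells, calls lost in 9 and 10 of 17 alternatives. In each comparison 2 to 4 of the 8 tested enzymes were called, with 1 higher and 1 lower in CD90 against p75, 2 and 2 in TRKA against CD90, 1 and 2 in TRKA against p75, 2 and 1 in TRKA-TGF against TRKA and against p75, and 2 higher in TRKA-TGF against CD90. The shares of all genes called in these comparisons were, in that order, 7.25, 34.9, 35.7, 26.4, 15.1 and 14.9%.

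Of the 6 tested enzymes that make the linker between protein and chain, 1 was called lower and 2 higher in TRKA than in CD90 cells. Pxylp1, a phosphatase of the linker xylose, was lower (−5.32), and Fam20b, the kinase of that xylose, and B3gat3, which adds the last sugar of the linker, were higher (1.52 and 1.48), the B3gat3 call being lost in 9 of 17 alternatives. Against p75 cells Pxylp1 and Xylt2, which adds the xylose, were lower in TRKA cells (−6.44 and −3.18, the latter lost in 8 of 17 alternatives). Between TRKA-TGF and TRKA cells Xylt2 was called higher (3.94), and Pxylp1 was lower in TRKA-TGF than in p75 cells (−4.03). The shares of all genes called in these comparisons were, in the order given, 34.9, 35.7, 26.4 and 15.1%.

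Growth factors and receptors that members of the family bind were called in both directions. Of 21 tested, 6 were called higher and 1 lower in CD90 than in p75 cells, with 7.25% of all genes called. Bmp4, a bone morphogenetic protein, and Ccn4, a matricellular protein that binds decorin and biglycan, led with 9.23 and 8.57, and Met, a decorin receptor, followed with 4.41. The other 3 were Tlr2 (3.58), Tgfb3 (2.22) and Lrp1 (0.97), and the gene called lower was Cd44 (−2.38). Tgfb3, an isoform of transforming growth factor beta, stood at 2.65 ± 0.20 in CD90 and 0.43 ± 0.26 in p75 cells and was not detected on any TRKA or TRKA-TGF array, which is at least 600-fold and 708-fold below CD90. Tlr2, a receptor of free biglycan, ran the other way, at 2.11 ± 0.79 in TRKA and 0.40 ± 0.56 in TRKA-TGF cells against −6.31 ± 0.34 in p75 cells (TRKA minus p75 8.42 ± 0.76, adjusted p = 1.55e-06). Between TRKA-TGF and TRKA cells P2rx7, a purine receptor that free biglycan engages, was called higher (4.67) and Tnf lower (−3.12), and 19 of 21 were not called. Tnf was detected on 3 TRKA arrays and on no TRKA-TGF array, and the ranges overlapped. Of all genes 26.4% were called there. The P2rx7 call was lost in 13 of 17 alternatives, and that of Lrp1 between CD90 and p75 cells in 6.

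Among 11 proteases and helpers that trim these proteins, 6 were called lower in TRKA than in CD90 cells (Adamts5, Mmp2, Bmp1, Pcolce, Tll2 and Adamts4) and 2 higher (Mmp12 and Mmp14), and the same genes were called in the same directions against p75 cells. Of all genes, 34.9% were called against CD90 and 35.7% against p75 cells. The Adamts4 call against CD90 and the Tll2 call against p75 cells were each lost in 10 of 17 alternatives. Adamts5, which cuts the large proteoglycan aggrecan, was not detected on TRKA arrays, which were at least 199-fold below CD90 and at least 395-fold below p75 arrays. Mmp2, a gelatinase, was lower in TRKA than in CD90 and p75 cells (−7.25 and −5.95). Mmp12, the macrophage elastase, was higher in TRKA than in p75 cells by 7.36 ± 0.97 (adjusted p = 4.78e-05). Mmp14, a membrane-bound collagenase, was higher in TRKA than in CD90 cells by 0.74, but quantile normalization turned this difference and that against p75 cells to negative values (−0.22 and −0.06). In CD90 against p75 cells, with 7.25% of all genes called, Pcolce, an enhancer of procollagen processing, and Tll1, a tolloid protease, were higher (2.82 and 1.13). Adamts4 was lower there (−6.06).

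Other matrix proteins built from leucine-rich repeats took different courses. Podnl1, a podocan relative, was higher in CD90 than in p75 cells (4.50 ± 0.24, adjusted p = 3.33e-08) and lower in TRKA than in CD90 cells (−2.56 ± 0.24). Chad, the cartilage protein chondroadherin, was detected on all TRKA-TGF arrays (1.61 ± 0.57) and no TRKA array, at least 273-fold higher (adjusted p = 0.00249), and on all CD90 arrays (−0.74 ± 1.08). Omg, the myelin glycoprotein of oligodendrocytes, was likewise not detected on TRKA arrays and at least 11.3-fold higher in TRKA-TGF cells, a call lost in 4 of 17 alternatives. These were 3 of the 6 such genes tested.

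Some markers of cartilage and tendon were high in CD90 cells beside Omd and Epyc. Of 11 markers of cartilage, bone and tendon, 3 were called higher than in p75 cells, with 3.69% of all genes called higher. They were Tnmd, a marker of tendon (8.61 ± 1.21), Acan, the large cartilage proteoglycan aggrecan (8.57 ± 0.62), and Col2a1, the collagen of cartilage (4.27 ± 1.02). The other 8 were not called. The bone markers Runx2 and Sp7 lay lower in CD90 than in p75 cells (−1.06 against 1.35 and −2.25 against −1.90). Bglap and Ibsp lay higher but were dim in both (−4.45 against −4.95 and −5.34 against −7.93). Comp, of cartilage, stood at 1.48 in CD90 and 1.88 in p75 cells. The summed signal of the 11 markers was 10.46 to 21.3 on CD90 arrays, 6.0 to 9.83 on p75 arrays, 1.36 to 16.2 on TRKA arrays and 2.37 to 3.65 on TRKA-TGF arrays, so TRKA and CD90 arrays overlapped. Smooth muscle markers ran higher in CD90 cells too, with 4 of 8 called higher than in p75 cells (Lmod1 at least 87.2-fold, Rgs5 at least 54.3-fold, and Mylk and Cnn1 by 6.44 and 4.40 on the log2 scale) and a summed signal of 105 to 118 against 19.7 to 25.5 on p75 arrays. The part of these cell types in the CD90 levels of the family was not tested.

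The genes whose levels over the 16 arrays were most like those of the 3 widest-ranging members were read by Pearson's r, which here mostly sets the 4 CD90 arrays against the other 12. For Lum they were Itga11, a collagen-binding integrin (r = 0.96), Met (0.94) and Pex6 (0.94). For Epyc they were Omd (0.98), Ptgfr (0.98) and Capza1-ps1 (0.98). For Omd they were Dlx5, a homeobox gene of bone and of the nasal placode (0.99), Capza1-ps1 (0.99) and Ptgfr (0.99).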

How the data were processed

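RNA of sorted cells from 16 samples was amplified by a PCR-based method before labelling and hybridised to 1-colour Agilent arrays, per the labels' protocols, and such amplification can lose or favour low transcripts. The deposited scanner files hold the intensity of each spot; per the file headers, Feature Extraction 10.7.3.1 subtracted the background (the submitters' processing notes name version 10.5). The authors' deposited table holds log2 values with normalization and centring unstated; its columns matched quantile-normalized log2 signals centred on each probe's median, and it served as an alternative only.

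For the values here, flagged outliers among 58717 spots that are not controls were dropped and log2 spots of a probe were averaged. Each array's 75th percentile over these probe averages was then subtracted. Probes well above background on at least 4 of 16 arrays were kept (23695 of 30367), and a gene was read by its brightest kept probe, giving 20568 genes. Of the probes, 18355 were named by accession and 3191 by symbol through the RefSeq table, and 8821 kept the name of the array file. Group means were fitted to all 16 arrays with limma 3.58.1 in R 4.3.3 and compared by its moderated test, with Benjamini-Hochberg adjustment over all genes and a threshold of 0.05; the procedure was tested on simulated data. With 4 arrays a group, their number limits the precision.

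The members and gene lists were chosen with earlier results of these data known. All members are named, with up to 4 called genes per other list by size of difference, genes behind counts of 5 or fewer, and for the 3 members with the widest range the 3 genes of highest Pearson correlation; beyond these, Tll1, Pcolce, Adamts4, Mmp12, Mmp14, Tlr2, Col1a1 and Chst1 were named after their values were seen. Replicate numbers are shared between groups, but deviations of same-numbered arrays correlated between −0.03 and 0.04 over 24 pairs, so no block was used. In TRKA-TGF against TRKA cells each same-numbered array was the best match, with correlations from 0.0123 to 0.0426. In the other comparisons most were not, and whether the numbers pair samples stays unknown. Alternatives were normexp (offset 50), quantile normalization, the authors' values, other probe filters, the mean of a gene's probes, the replicate block, pairwise fits, array weights, leaving out each array and, chosen after seeing the data, the other Bgn probe. Quantile normalization and the authors' values are nearly the same alternative, so counts of alternatives are not counts of independent checks. The level of 1 gene behind the sort is not reported here.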

Additional observations from a re-analysis of the deposited data

Results flagged for a closer look

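In 3 of the 44 groups of 4 arrays examined (11 probes in 4 populations), 1 array lay apart from the others by Dixon's test at the 95% level; chance flags about 1 group in 20. Aspn on TRKA replicate 4 stood at −3.27, with the other TRKA arrays between −7.68 and −7.37. Aspn on TRKA-TGF replicate 1 stood at −5.38, with the others between −7.85 and −7.56. Ogn on TRKA-TGF replicate 1 stood at −5.74, with the others between −8.17 and −7.75. In each case the array that lay apart was well above background and the other 3 were not.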

How the results depend on the processing

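Of 972 member differences recomputed, 883 kept their direction and their side of the threshold, 30 lost the call, 23 gained one and 36 changed sign, 2 of them from a called value (Bgn in TRKA-TGF against TRKA: −0.75 with the mean of its probes and −3.48 by its other probe). Part of the 972 could not change sign. The other Bgn probe left the levels of all other members as they were, and the block, the pairwise fits and the array weights changed p-values but no difference. The count of 883 is thus no measure of stability by itself. The cause of the changes was not tested. Between TRKA and p75 cells 5 members were called with normexp (Omd, Epyc and Ogn higher, Bgn and Prelp lower), 1 in a fit of only those groups and 1 with array weights. Between TRKA-TGF and TRKA cells 2 were called with normexp, 4 with quantile normalization and 4 with the authors' values (Bgn higher, Epyc, Fmod and Prelp lower), and 0 with the mean of a gene's probes, by limma, in place of the 1 call for Bgn. With array weights 4908 genes were called in TRKA-TGF against p75 and 4622 against CD90 cells.

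Other signs turned for differences that were not called. With normexp the turned values were Fmod −0.24 in TRKA-TGF against TRKA, and Epyc 0.18, Aspn 0.13 and Ogn 0.0304 in TRKA-TGF against p75. With quantile normalization they were Fmod 0.89 (from −0.80) and Prelp 1.02 in TRKA against CD90, Fmod −1.56 in TRKA-TGF against TRKA, and Omd −0.0708 and Fmod −0.038 in TRKA-TGF against p75. The authors' values gave 0.88, 1.01, −1.56, −0.0705 and −0.0406 for the same 5.

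Leaving out 1 array gave 4 to 5 members called in CD90 against p75 and 1 to 3 in TRKA against p75, where 1 remained without p75 replicate 2 or TRKA replicate 1, 2 or 3; the other counts of members stayed at 7, 7, 2 and 1. Genes called ran from 1199 to 1293 in CD90 against p75, 6287 to 7371 in TRKA against CD90, 6279 to 7669 in TRKA against p75, 2440 to 2645 in TRKA-TGF against CD90, 2531 to 2687 in TRKA-TGF against p75 and 4328 to 5818 in TRKA-TGF against TRKA. Differences that turned in some of these fits were Prelp in TRKA against CD90 (−1.05 to 0.27), Aspn, Fmod and Ogn in TRKA against p75 (−0.78 to 0.92, −0.41 to 0.28 and −0.11 to 1.94), Epyc, Aspn, Fmod and Ogn in TRKA-TGF against p75 (−0.72 to 0.17, −0.997 to 0.23, −0.10 to 0.38 and −1.20 to 0.26), and Aspn, Fmod and Prelp in TRKA-TGF against TRKA (−1.27 to 0.37, −0.16 to 0.52 and −0.9998 to 0.0943).

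With the replicate number as a block (replicate block), the adjusted p of Lum rose to 0.0765 in CD90 against p75 and 0.0722 in TRKA against p75, and that of Dcn fell to 0.0412 and 0.0434, so the counts of members stayed at 5 and 3; genes called were 1323 in CD90 against p75 and 7158 in TRKA against p75. The block changed no other call of a member. The numbers are not shown to pair the samples.

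Quantile normalization moved the median of all genes from −0.01 to 0.24 in TRKA against p75 and from 0.19 to −0.13 in TRKA-TGF against TRKA. Of 356 called differences of genes on the other lists, 249 kept their call in every alternative run on them, 104 lost it in some, and 3 changed sign in some (Mmp14 as given above, and Podnl1 in TRKA-TGF against p75, 0.99 to −0.13 with the mean of its probes). Probes not well above background carry no order among dark arrays, and fewer spots were above background on TRKA arrays.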
